A study of Saccharomyces cerevisiae with 5 samples.

Results

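The RNA levels of 40 genes of the actin cytoskeleton and of endocytosis were examined in growing budding yeast. The 40 genes were taken by the gene name in the scanner files from a list of symbols, and all 40 were found among the 6256 genes on the array. The list was drawn up with earlier results of these data known. They encode actin and the proteins that turn it over, filament capping, bundling and stabilising proteins, the Arp2/3 complex with its regulators, the myosins, the formins, and the coat and scission proteins of endocytosis.

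The RNA came from Saccharomyces cerevisiae strain Sigma 1287b, L5366 as the labels spell it (Sigma1278b L5366 in the study's text), grown at 30 °C in rich medium to mid-log phase. Each of 5 RNA samples was converted to cDNA, labelled with the green dye Cy3 and hybridised to a two-colour Agilent array together with Cy5-labelled genomic DNA of the same labelled strain. The 5 arrays form 1 group without a mutant, a treatment or a second growth condition, so the comparisons are between genes in the same cells. The study's methods describe biological replicates, but the labels do not say whether these 5 RNA samples came from separate cultures, and SDs and p-values then measure only the spread between these samples, which may be technical.

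Budding yeast builds actin into patches, cables and a ring. Patches are branched networks that the Arp2/3 complex nucleates at sites of endocytosis, where a coat of adaptors bends the plasma membrane and scission proteins release the vesicle. Cables are bundles that the formins nucleate and tropomyosin stabilises, and myosins walk along them into the bud. The ring closes at the bud neck during cytokinesis, and cofilin, profilin and their partners return actin from old filaments to new ones.

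The level of a gene is given as log2 of its RNA signal over its genomic DNA signal, relative to the median gene of the same array, so that 0 is the median gene and 1 is a 2-fold higher ratio. Each gene had 1 probe printed as 7 spots, so this ratio is per probe and does not add up over the length of a gene. It compares genes on the assumption that each probe gives the same RNA and genomic DNA response, which was not tested, and dyes were not swapped. RNA and genomic DNA signals of all 40 genes were well above background on all 5 arrays, and between 32 and 35 of the 35 spots of each gene were usable. Arrays correlated with each other at Pearson's r from 0.993 to 0.998 across the 40 genes and from 0.992 to 0.998 across all genes, which are not independent replicates. Ribosomal protein genes lay above and meiosis genes below the median gene (6 of 6 in each list, with medians of 5.56 and -2.95).

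Most of the actin and endocytosis genes had RNA levels above that of the median yeast gene. Their median level was 1.20 ± 0.04 (SD, n = 5 arrays), against -0.011 for all other genes, and 36 of the 40 lay above the median gene. With Agilent's processed signals the median was 0.44 and 30 genes lay above, and with loess normalization within arrays it was 0.27 and 25 genes lay above. The middle of the set, from its lower to its upper quartile, ran from 0.63 to 2.06. At the top were ACT1, the actin gene itself, at 4.10 ± 0.16, a ratio 17.1 times that of the median gene, and COF1, cofilin, at 4.05 ± 0.06. At the bottom was MYO3, a type I myosin, at -1.37 ± 0.02 (SD, n = 5 for each).

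A gene was called above or below only where its level differed from the median gene by more than 2-fold at an adjusted p of 0.05 (limma's treat, Benjamini-Hochberg adjustment over all 6256 genes). Of the 40 genes, 21 were called above (52.5%), against 26.5% of all genes, and 1 was called below (2.50%), against 27.5% of all genes. The adjusted p of the 22 called genes was at most 0.000853 in limma, and the lowest among the 18 others was 0.252. Neither count describes the whole pathway, since the 40 symbols are a chosen list. With processed signals 9 of the 21 genes were still called above (10.5% of all genes). With loess 8 genes were called above (8.15% of all genes), 7 of the 21 and BNR1, which was not among them. With RNA signal alone 65% of the 40 genes were called above (25.1% of all genes). Of the 21 genes, 7 stayed called above in every alternative that gave a level for each gene, RNA signal alone among them. These were COF1, the capping subunit gene CAP1 and the 5 Arp2/3 genes ARP2, ARP3, ARC18, ARC19 and ARC40. Their genomic DNA signals, the divisor of the level, lay between percentiles 3.85 (CAP1) and 28.6 (COF1) of all genes. BNR1, MYO1, TPM2 and TWF1 lay in the same range and were not among the 7. The part of the genomic DNA signal was not tested.

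**Figure D1:**
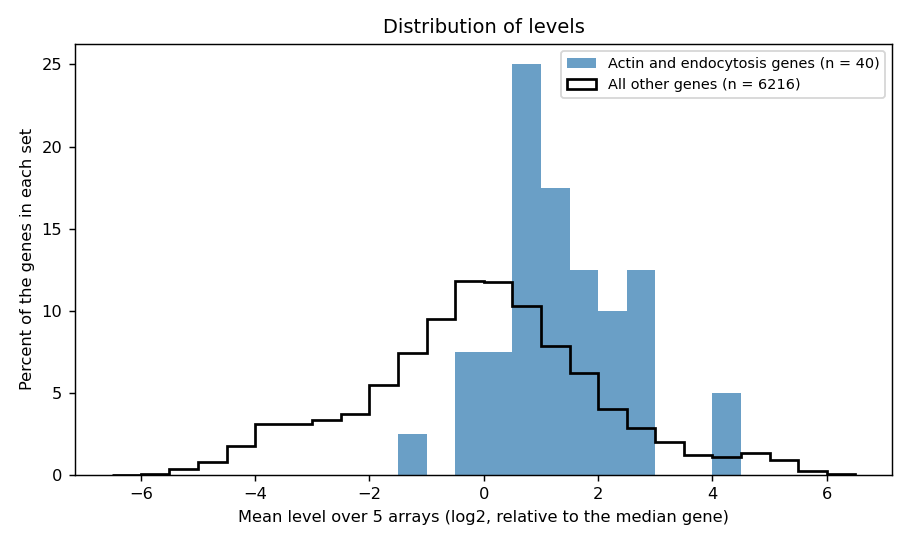
Distribution of mean levels over 5 arrays. The horizontal axis is the level (log2, relative to the median gene), the vertical axis is the percent of genes of each set per bin, filled bars are the 40 actin and endocytosis genes and the black outline is the other 6216 genes. The filled bars centre on a median of 1.20 and the outline on -0.011, and only MYO3 lies left of -1 among the 40.

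Genes for actin itself and for filament turnover had a median of 2.56, and 6 of 7 were called above. Calls in this and the other roles stand beside 26.5% above and 27.5% below among all genes. Each role holds only 2 to 7 genes. The median of 2.56 was the highest of any role. With processed signals the Arp2/3 genes (1.54) and the capping genes (1.34) stood higher than the turnover genes (0.92). With loess they also stood higher (1.34 and 1.26, against 0.64). ACT1 read 4.28, 4.25, 4.01, 3.94 and 4.0 on arrays 1 to 5. It was higher on arrays 1 and 2 than on arrays 3 to 5, which gave it one of the 3 largest SDs of the set. COF1 encodes cofilin, which severs aged filaments, and its level did not differ from that of ACT1 beyond the spread (0.050 ± 0.12 for ACT1 minus COF1, positive on 2 of 5 arrays). Loess placed ACT1 at -0.073 and processed signals at 0.26, so its distance from the median gene depended on the normalization.

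CRN1, coronin, stood at 2.61 ± 0.05 and PFY1, profilin, which binds actin monomers and feeds them to formins, at 2.56 ± 0.02 (SD, n = 5), although PFY1 turned to -0.20 with processed signals and to -0.51 with loess. SRV2, the cyclase-associated protein that recycles actin monomers, followed at 2.26 ± 0.06, and AIP1, a cofactor of cofilin, at 1.24 ± 0.08. With loess CRN1 (1.02), SRV2 (0.75) and AIP1 (0.58) lost their calls, and AIP1 also with processed signals (0.92), and COF1 was the only gene of this group called above under both. TWF1 encodes twinfilin, another monomer-binding protein, and was the lowest of this group. Its levels were 0.69, 0.81, 0.77, 0.77 and 0.82 on arrays 1 to 5, in a narrow range short of the 2-fold limit.

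**Figure D2:**
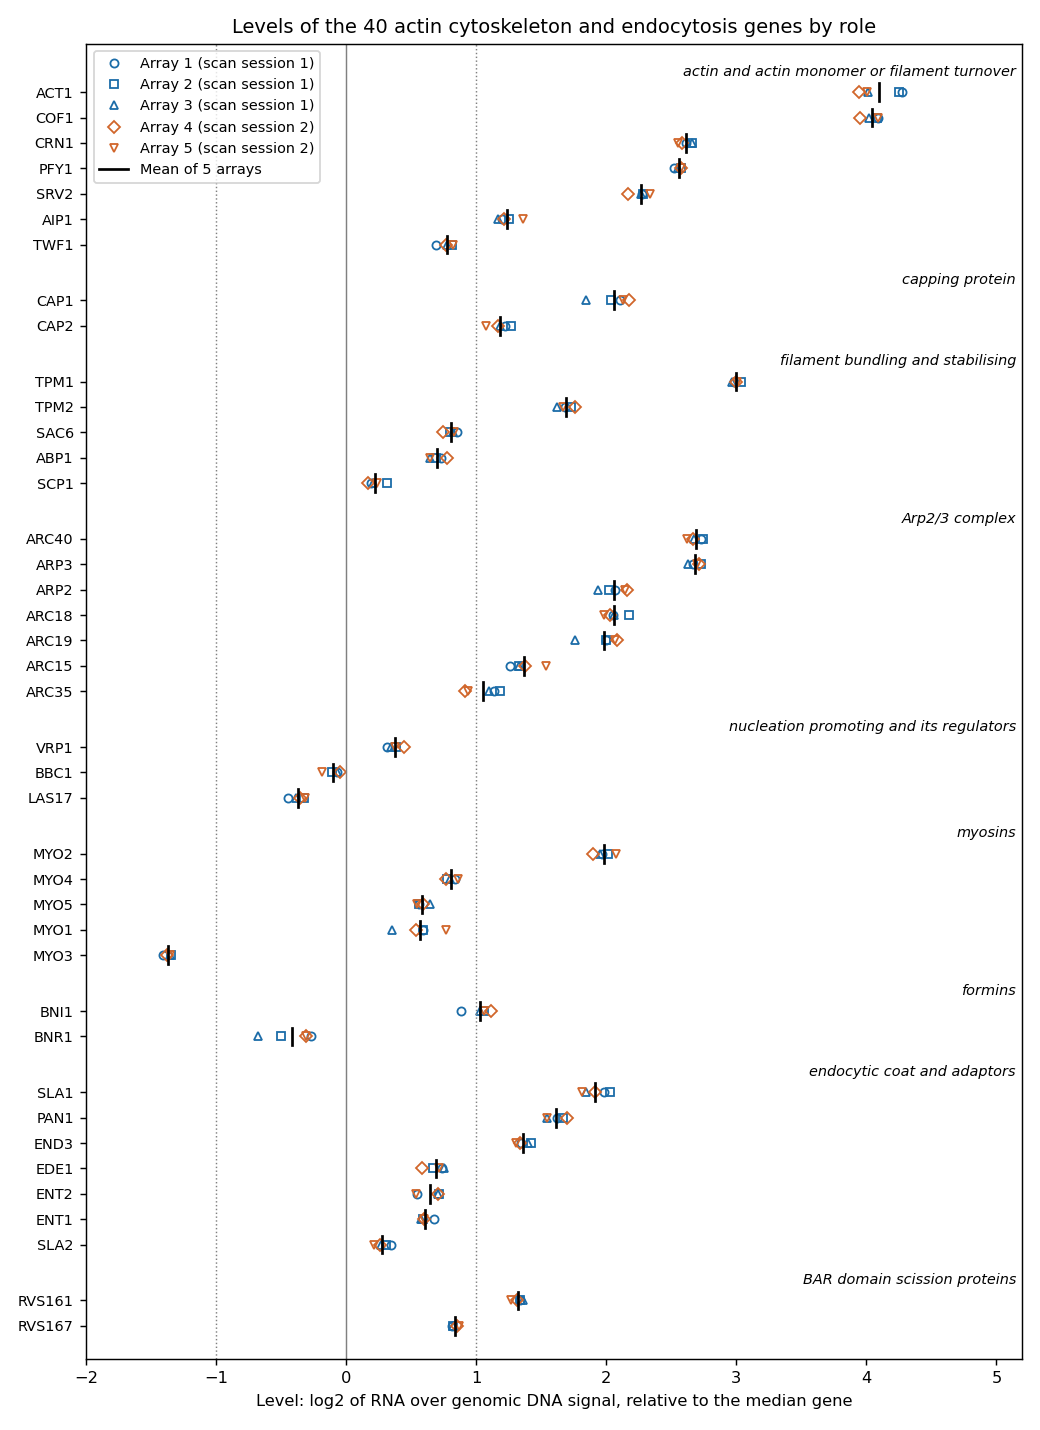
Levels of the 40 genes, grouped by role. The horizontal axis is the level (log2 of RNA over genomic DNA signal, relative to the median gene, drawn as a grey line, with the 2-fold limits dotted), open symbols are the 5 arrays coloured by scan session and black bars are their means. ACT1 and COF1 stand near 4, the Arp2/3 genes between 1.05 and 2.69, and MYO3 alone lies below the lower 2-fold limit.

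Capping protein is a heterodimer that blocks the growing end of a filament, and both subunit genes were called above. CAP1, the alpha subunit gene, read 2.10, 2.03, 1.84, 2.17 and 2.12 on arrays 1 to 5, with array 3 lowest. CAP2, the beta subunit gene, read 1.22, 1.27, 1.18, 1.16 and 1.07, so the 2 genes did not overlap. The call of CAP2 was lost with loess (0.68), with processed signals (0.76), with RNA signal alone (0.99), against the median of RefSeq genes (1.06) and in the second session alone (1.12). CAP1 minus CAP2 was 0.87 ± 0.16 (SD, n = 5) and positive on 5 of 5 arrays. The genomic DNA signal of CAP1 was the lowest of the 40 genes (mean intensity 6357, against 9980 for CAP2), and with RNA signal alone the difference was 0.23 ± 0.21.

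Among bundling and stabilising genes, the 2 tropomyosins were called above and the other 3 genes were not. TPM1, the main tropomyosin of actin cables, read 2.98, 3.03, 2.97, 3.0 and 3.01 on arrays 1 to 5. TPM2, the minor tropomyosin, read 1.68, 1.73, 1.62, 1.76 and 1.67. TPM1 minus TPM2 was therefore 1.31 ± 0.04 (SD, n = 5), a ratio 2.47 times higher, and positive on each array, but processed signals turned the difference to -0.39 and loess to -0.74. Both calls were lost with processed signals (0.59 for TPM1 and 0.99 for TPM2) and with loess (0.28 and 1.01).

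SAC6, fimbrin, crosslinks filaments in patches and read 0.85, 0.80, 0.82, 0.74 and 0.83 on arrays 1 to 5. SCP1, a calponin-like protein that bundles filaments alongside fimbrin, read 0.19, 0.31, 0.21, 0.17 and 0.23, lower on each array. The difference SAC6 minus SCP1 of 0.59 ± 0.06 (SD, n = 5) turned to -0.34 with normexp background correction, to -1.26 with processed signals and to -1.55 with loess, and was 1.80 with RNA signal alone. SAC6 had the brightest genomic DNA signal of the 40 genes (mean intensity 24162, against 10391 for SCP1). With RNA signal alone SAC6 was called above (1.89). ABP1, which binds filaments and activates the Arp2/3 complex, stood at 0.70 ± 0.06 (SD, n = 5).

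The Arp2/3 complex holds 2 actin-related proteins and 5 further subunits, and 6 of its 7 genes were called above, with a median of 2.06. The levels of the 7 genes were not equal. The highest and the lowest gene on an array lay 1.66 ± 0.11 apart (SD, n = 5). ARC40, the WD-repeat subunit, read 2.72, 2.74, 2.67, 2.67 and 2.62 on arrays 1 to 5, and ARP3 read 2.66, 2.73, 2.62, 2.71 and 2.70. These 2 genes did not differ beyond their spread (0.0018 ± 0.06, SD, n = 5).

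ARP2 followed at 2.06, 2.02, 1.94, 2.15 and 2.14 on arrays 1 to 5, with ARC18 at 2.06 ± 0.07 and ARC19 at 1.98 ± 0.13 (SD, n = 5), and neighbours among these 3 genes did not differ beyond their spread. ARP2 minus ARP3 was -0.62 ± 0.07 (SD, n = 5) and negative on 5 of 5 arrays, and shrank to -0.31 with processed signals and to -0.13 with loess. ARC15 stood lower, at 1.37 ± 0.10 (SD, n = 5), lost its call with normexp (1.08) and turned to -0.37 with loess. ARC35, which with ARC19 forms the core that holds the complex together, was the lowest subunit gene on every array. Its levels were 1.14, 1.18, 1.1, 0.91 and 0.94, and it was not called (limma treat adjusted p = 0.252). The 3 arrays of the first scan session alone gave a call, and so did RNA signal alone (1.30).

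None of the 3 genes grouped here as nucleation promoting factors and their regulators was called (26.5% of all genes above and 27.5% below). The group is not complete, since PAN1 and ABP1, whose products also activate the Arp2/3 complex, were placed in other groups. Of these, PAN1 was called above and ABP1 was not. VRP1, verprolin, a partner of the activator Las17, was the highest at 0.31, 0.38, 0.35, 0.44 and 0.38 on arrays 1 to 5. LAS17, the yeast WASP homologue that switches on the Arp2/3 complex, was the lowest at -0.45, -0.33, -0.39, -0.36 and -0.32. Its level was negative on each array, while all 7 genes of the complex it activates were positive. BBC1, which restrains Las17, stood at -0.10 ± 0.05 (SD, n = 5).

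The 5 myosin genes spanned 3.35 ± 0.06 on the log2 scale (SD, n = 5), about as much as the turnover genes (3.35 ± 0.17). MYO2 encodes the type V myosin that carries secretory vesicles and organelles into the bud and was the only myosin gene called above, at 1.97, 2.01, 1.95, 1.89 and 2.08 on arrays 1 to 5. MYO4, the type V myosin that carries mRNA to the bud, read 0.84, 0.78, 0.80, 0.76 and 0.86. Every value of MYO2 lay above every value of MYO4. The call of MYO2 was lost with processed signals (0.44), and loess turned its level to -0.20. MYO2 minus MYO4 was 1.17 ± 0.05 (SD, n = 5), a direction that loess turned to -0.65.

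The type I myosins MYO5 and MYO3 push on the membrane at endocytic patches and overlap in function. MYO5 read 0.56, 0.56, 0.64, 0.59 and 0.55 on arrays 1 to 5. MYO3 read -1.41, -1.35, -1.36, -1.38 and -1.36, the only gene of the 40 called below, a call that was lost with loess (-1.02) and with RNA signal alone (-0.92). The difference MYO5 minus MYO3 was 1.95 ± 0.04 (SD, n = 5), a ratio 3.86 times higher, and it was positive under every alternative tried, from 0.75 with loess to 2.01 with the negative controls subtracted. The mean genomic DNA intensities of the 2 genes were close (14565 for MYO5 and 15533 for MYO3), and the mean RNA intensities were 3094 and 856.6. MYO1, the type II myosin of the cytokinetic ring, read 0.59, 0.59, 0.35, 0.54 and 0.77, with array 3 lowest and array 5 highest, and had one of the 3 largest SDs (0.15).

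Formins nucleate unbranched filaments for cables, Bni1 mainly at the bud tip and Bnr1 at the bud neck. Neither gene was called. BNI1 read 0.88, 1.06, 1.02, 1.11 and 1.06 on arrays 1 to 5, close to the 2-fold limit (limma treat adjusted p = 0.44). With RNA signal alone BNI1 was called above (1.48). BNR1 read -0.27, -0.50, -0.68, -0.31 and -0.31, with the largest SD of the 40 genes (0.17) and array 3 lowest. BNI1 minus BNR1 was 1.44 ± 0.21 (SD, n = 5), positive on 5 of 5 arrays, but it turned to -0.50 with processed signals and to -1.46 with loess. The mean genomic DNA intensity was 15568 for BNI1 and 6813 for BNR1.

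Of the 7 coat and adaptor genes, 3 were called above (26.5% of all genes). These were SLA1, PAN1 and END3, which encode 3 proteins of one complex that links coat and actin. All 3 calls were lost with processed signals (0.84 for SLA1, 0.47 for PAN1 and 0.45 for END3) and with loess (0.57, 0.15 and 0.029). SLA1 was the highest at 1.98, 2.03, 1.84, 1.91 and 1.81 on arrays 1 to 5. PAN1, whose product activates the Arp2/3 complex, read 1.62, 1.67, 1.55, 1.70 and 1.55, and END3, its partner, read 1.34, 1.42, 1.39, 1.34 and 1.30. PAN1 lay above END3 on each array by a small margin (0.26 ± 0.07, SD, n = 5). Processed signals reduced it to 0.028 ± 0.12 and loess to 0.12 ± 0.15.

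The 4 adaptor genes not called act early or bind the membrane lipid. EDE1, an early-arriving scaffold, stood at 0.69 ± 0.07 (SD, n = 5). SLA2, which couples membrane and actin, was the lowest of the coat genes at 0.34, 0.31, 0.27, 0.26 and 0.21 on arrays 1 to 5, and turned to -1.14 with processed signals and to -1.35 with loess. The epsins ENT2 and ENT1 are paralogs. ENT2 read 0.54, 0.71, 0.70, 0.71 and 0.53, and ENT1 read 0.67, 0.59, 0.58, 0.59 and 0.60, so their ranges overlapped. ENT2 minus ENT1 was 0.033 ± 0.12 (SD, n = 5), positive on 3 of 5 arrays, with values on single arrays from -0.13 to 0.13. Normexp, processed signals and loess each turned it below 0. With RNA signal alone SLA2 (1.31) and ENT2 (1.52) were called above.

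Rvs161 and Rvs167 form the amphiphysin heterodimer that drives scission of the vesicle. RVS161 read 1.34, 1.34, 1.36, 1.31 and 1.27 on arrays 1 to 5 and was called above. RVS167 read 0.81, 0.82, 0.82, 0.85 and 0.87 and was not called, but RNA signal alone called it above (1.17). RVS161 minus RVS167 was 0.49 ± 0.06 (SD, n = 5) and positive on 5 of 5 arrays, and was 0.29 with RNA signal alone. The call of RVS161 was lost with processed signals (0.48) and with loess (0.26).

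**Figure D3:**
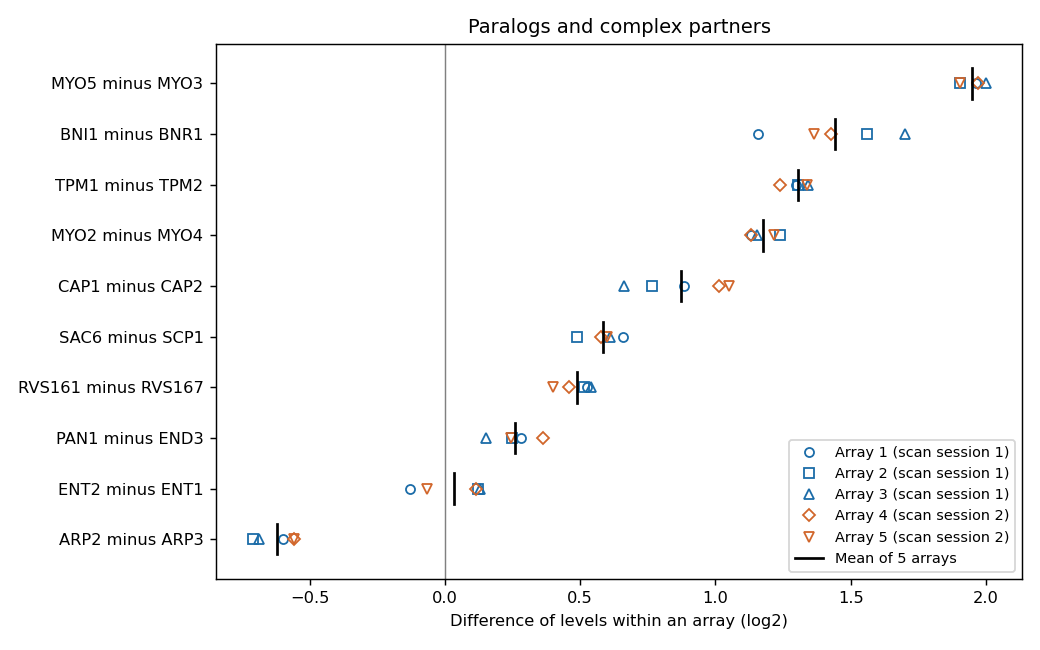
Differences between paralogs and complex partners within an array. The horizontal axis is the level of the first gene minus that of the second (log2), open symbols are the 5 arrays and black bars are their means. All arrays of a pair lie on one side of 0 except for ENT2 minus ENT1, and the signs of MYO2 minus MYO4, TPM1 minus TPM2, BNI1 minus BNR1, ENT2 minus ENT1 and SAC6 minus SCP1 turned under loess.

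The 10 pairs of paralogs or complex partners were compared within arrays by flipping the signs of the 5 differences in every way (exact permutation test, two-sided). In 9 of the 10 pairs no array went against the others, for which this exact test gives p = 0.0625, its lowest value (adjusted p = 0.0694 over the 10 pairs). For ENT2 minus ENT1 the exact permutation test gave p = 0.625 (adjusted p = 0.625). This test cannot reach 0.05 with 5 arrays. Across the alternatives tried, 5 pairs kept their direction (MYO5 and MYO3, CAP1 and CAP2, ARP2 and ARP3, RVS161 and RVS167, PAN1 and END3) and the other 5 turned in at least 1. The direction of PAN1 minus END3 was not resolved with processed signals (0.028 ± 0.12) or with loess (0.12 ± 0.15), where it lay within its SD.

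In the order of all 40 levels, 14 of the 39 neighbouring steps were larger than their spread, meaning that the difference exceeded its SD and had 1 sign on all 5 arrays. ACT1 and COF1 shared the top. COF1 exceeded TPM1, the next gene, by 1.05 ± 0.06, and BNR1 exceeded MYO3 by 0.96 ± 0.19 at the bottom (SD, n = 5). From RVS167 at 0.83 down to MYO1 at 0.57, each of 9 steps was within its spread, and the genes RVS167, SAC6, MYO4, TWF1, ABP1, EDE1, ENT2, ENT1, MYO5 and MYO1 had no resolved order between neighbours.

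Across the 40 genes, levels and genomic DNA signals had a Pearson's r of -0.089 and a Spearman's rho of -0.18 (against -0.12 and -0.034 across all 6256 genes). These values describe genes on the same 5 arrays, and the genomic DNA signal is itself the divisor of the level. Mean genomic DNA intensities ran from 6357 for CAP1 to 24162 for SAC6, and mean RNA intensities from 745.9 for BNR1 to 58707 for ACT1. RNA therefore varied far more between these genes than genomic DNA did.

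**Figure D4:**
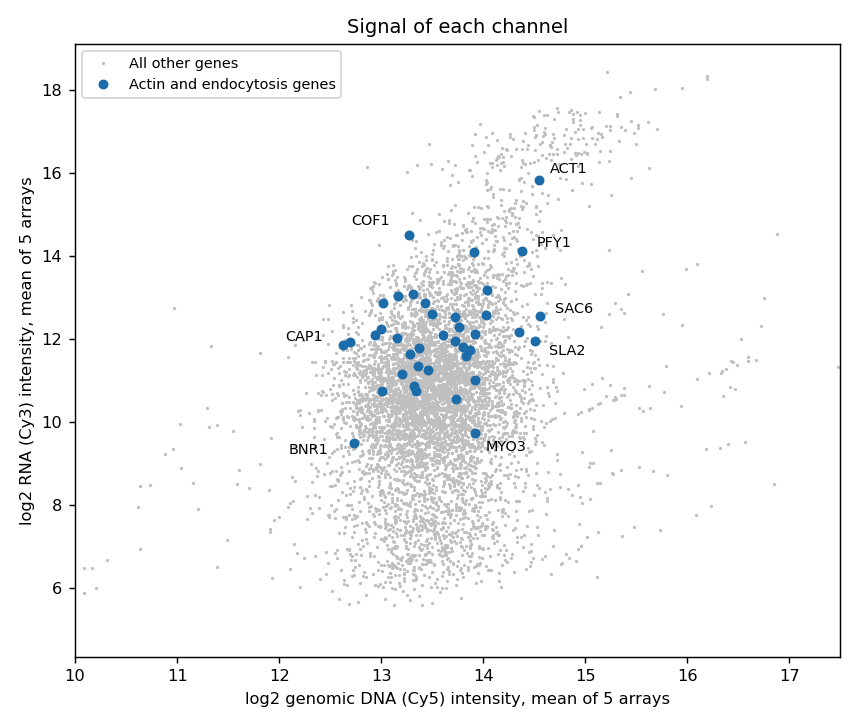
RNA and genomic DNA signal of each gene. The horizontal axis is the log2 genomic DNA (Cy5) intensity and the vertical axis the log2 RNA (Cy3) intensity, both background-subtracted means of 5 arrays, blue points are the 40 actin and endocytosis genes and grey points the other genes. The blue points spread widely along the RNA axis, from BNR1 to ACT1, and over a narrower range along the genomic DNA axis, from CAP1 to SAC6.

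The spread between arrays was small, with a median SD of 0.055 over the 40 genes, against 0.080 over all genes. It was not evenly distributed. The 7 genes whose genomic DNA signal lay in the lowest 15% of all genes (CAP1, ARC18, BNR1, ARC19, ARP2, MYO1 and ARP3) had a median SD of 0.13, against 0.053 for the other 33. Of these 7 genes, 6 were lowest on array 3, against 5 of the other 33. Level on array 3 minus the mean of the other 4 arrays had a median of -0.27 in the 7 genes and -0.013 in the 33. Among all genes the median SD was 0.091 under the same limit and 0.078 over it. The median differences of array 3 from the other arrays were -0.040 and 0.014 there. The shares lowest on array 3 were 35.3% under the limit and 18.6% over it. In the 7 genes the log2 SD between arrays was larger in RNA signal than in genomic DNA signal, except in ARP3 (0.083 and 0.11). For CAP1 it was 0.20 and 0.079, and for BNR1 0.19 and 0.084. The limit was chosen after the spread and the values of array 3 were seen, and the part of the genomic DNA signal in the spread was not tested.

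**Figure D5:**
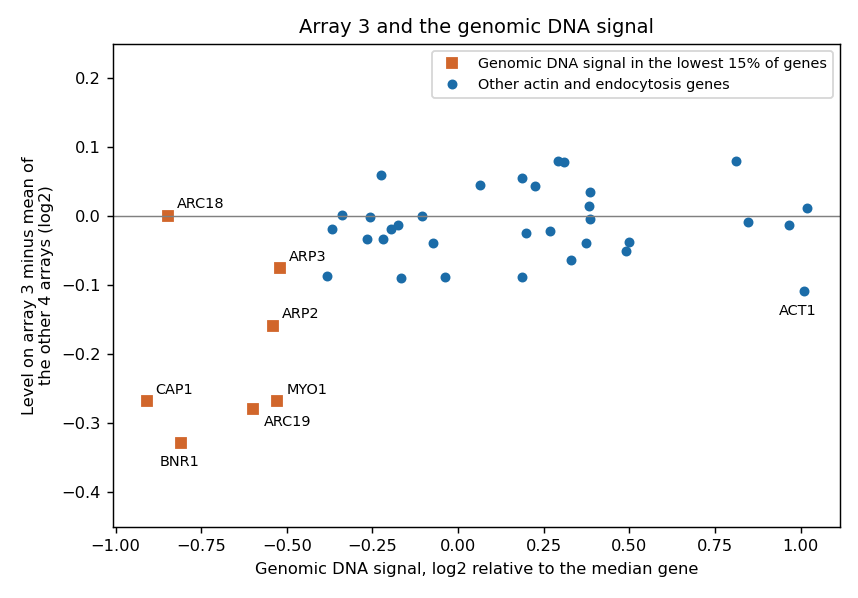
Levels on array 3 against the genomic DNA signal of the 40 genes. The horizontal axis is the genomic DNA signal (log2, relative to the median gene), the vertical axis is the level on array 3 minus the mean of the other 4 arrays (log2), orange squares are the 7 genes in the lowest 15% of genomic DNA signal and blue circles the other 33. BNR1, ARC19, CAP1 and MYO1 lie between -0.33 and -0.27, while ARC18 lies at 0.

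Arrays 4 and 5 were scanned in a second session and arrays 1 to 3 in a first one, and the second session coincides with 1 slide. None of the 40 genes differed between sessions in limma at an adjusted p of 0.05, against 2.64% of all genes, and 3 of the 40 had an unadjusted p under 0.05 (7.50%), against 20.2% of all genes. Second minus first session was positive for 20 genes and negative for 20, with a median absolute difference of 0.052, against 0.076 over all genes. The largest were ARC35 (-0.22), ACT1 (-0.21) and ARP2 (0.14). Other settings moved the count of 0, to 2 genes with only spots well above background and to 11 genes with slide as a random block. In these settings 2219 and 2242 of the 6256 genes on the array were called.

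Other genes of the same processes, from lists that hold none of the 40, lay closer to the median gene. Of 28 further endocytosis and patch genes, 6 were called above (21.4%) and 2 below (7.14%), against 26.5% and 27.5% of all genes. The median of the 28 genes was 0.064 ± 0.030 (SD, n = 5). CLC1, the clathrin light chain, was the highest at 2.67 ± 0.07, and YSC84, an actin-binding patch protein, the lowest at -1.67 ± 0.05. Of 29 further cable, ring and polarity genes, 11 were called above (37.9%) and 1 below (3.45%), with a median of 0.51 ± 0.04. The highest was CMD1, calmodulin, which is also a light chain of unconventional myosins, at 3.08 ± 0.08, and the lowest was BIL1, a formin regulator, at -1.09 ± 0.08.

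Genes of the other cytoskeletal polymers were set beside them, with 26.5% of all genes called above and 27.5% below. Of the 9 tubulin and kinesin genes, 2 were called above and 1 below, with a median of -0.44 ± 0.08 (SD, n = 5), from TUB2, beta-tubulin, at 2.97 ± 0.05 to KIP3, a kinesin that shortens microtubules, at -1.26 ± 0.04. Of the 7 septin genes, 5 were called above and 2 below, with a median of 1.51 ± 0.05, from CDC3 at 2.08 ± 0.19 to SPR3, a sporulation septin, at -4.32 ± 0.23. No test compared these lists with the 40 genes, and the alternatives were not tried on them.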

How the data were processed

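RNA (Cy3) and genomic DNA (Cy5) were measured on 5 two-colour Agilent arrays of 1 group. The authors deposited scanner files with spot intensity values and flags (another unit, 0 or 1), produced by release 10.1.1.1 of Agilent Feature Extraction per the file headers. Their deposited table of log2 ratios has column medians from -3.01 to -2.57 and so was not centred. Between 89.4% and 99.6% of its values matched unsubtracted spot medians within 0.001 log2, so direction and scale are settled and it served as an alternative. No source used here gives the genome build of the array, so a RefSeq table (assembly R64, 5756 of 6256 names matched) gave names only, for 8 of the listed genes.

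In each channel, the median of the local background was subtracted from that of the spot. Control spots, spots flagged as outliers in Cy3 or Cy5 (1.41% to 3.81% of gene spots) and at most 18 spots per array at or below background were left out. The log2 ratios of the 7 spots of a probe were averaged, quantile normalized (limma 3.58.1, R 4.3.3) and set relative to the median gene. The planned median over several probes per gene had no effect, since each gene had 1 probe. No spot was saturated, and the number of arrays limits the precision.

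Levels were tested with limma's treat at a log2 limit of 1, sessions with limma's lmFit and eBayes, and pairs with exact sign-flip tests over 32 sign patterns. The scripts were tested on simulated data. Values on every array are given for the highest and lowest gene of each role, both genes of each pair and the 3 largest SDs, and at most the highest and lowest gene of any other list is named. The 40 genes, the roles, pairs and lists were chosen with earlier results of these data known. Promoter motifs were planned and not analysed here. The alternatives changed background correction, signal source, spot filters, normalization, divisor, session, reference and the arrays used.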

Additional observations from a re-analysis of the deposited data

Results flagged for a closer look

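The levels of 51 results over the 5 arrays were examined for a single array far from the rest, by Dixon's criterion, and 2 were picked out, where chance alone picks out about 1 in 20. ARC19, a subunit gene of the Arp2/3 complex, stood at 1.76 on array 3, against 1.99 to 2.08 on the other arrays. Its genomic DNA signal was in the lowest 15% of genes. ENT1, an epsin gene, stood at 0.67 on array 1, against 0.58 to 0.60 on the other arrays. Outlier flags were most frequent on array 1 (3.81% of gene spots, against 1.41% to 1.72% elsewhere), and their part in this value was not tested.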

How the results depend on the processing

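Normalization limited the levels most. Loess removes, by its construction, a trend of the ratio with brightness, and the brightness includes the RNA signal. The cause of the shifts with loess and with processed signals was not tested. No paired analysis was possible because all 5 arrays belong to 1 group, so that no samples could be paired across groups. Pairs of genes were compared within arrays. The reference to the median of RefSeq genes, which lay 0.12 above that of all genes, was chosen after seeing the data. Promoter motifs and sequences were not run.

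The count of 21 genes called above was 9 with processed signals and 8 with loess (10.5% and 8.15% of all genes). In a test against 0 it was 36 (47.7% of all genes). The number called below, 1, was 2, 2 and 4 in that order, against 15.7%, 10.8% and 47.6% of all genes. With RNA signal alone it was 0, against 26.2% of all genes. With loess MYO3 was not among the 2, which were SAC6 and SLA2. The median of 1.20 was 0.44 with processed signals, 0.27 with loess, 1.16 with only spots well above background, 1.37 with RNA signal alone and 1.08 with the RefSeq reference. Session calls were 2 with only spots well above background and 11 with slide as a random block. Of the 6256 genes on the array, 2219 and 2242 were called in these settings.

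Among the pairs, normexp turned ENT2 minus ENT1 to -0.61 and SAC6 minus SCP1 to -0.34. Processed signals turned TPM1 minus TPM2 (-0.39), BNI1 minus BNR1 (-0.50), ENT2 minus ENT1 (-0.86) and SAC6 minus SCP1 (-1.26). Loess turned MYO2 minus MYO4 (-0.65), TPM1 minus TPM2 (-0.74), BNI1 minus BNR1 (-1.46), ENT2 minus ENT1 (-1.26) and SAC6 minus SCP1 (-1.55). RNA signal alone turned no pair and moved 7 of 10 by over 1.5 times, among them ENT2 minus ENT1 (0.92) and BNI1 minus BNR1 (2.63).

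Among single genes, processed signals turned PFY1 (-0.20), SLA2 (-1.14), SAC6 (-0.91), ENT2 (-0.63), EDE1 (-0.18), MYO5 (-0.042), RVS167 (-0.00044) and BNR1 (0.62). Loess turned ACT1 (-0.073), PFY1 (-0.51), SAC6 (-1.29), ARC15 (-0.37), MYO2 (-0.20), BNR1 (1.17) and SLA2 (-1.35). It also turned ENT2 (-1.03), BNI1 (-0.30), ABP1 (-0.29), EDE1 (-0.27), MYO5 (-0.27) and RVS167 (-0.17). Normexp turned SLA2 (-0.41), and RNA signal alone turned BBC1 (0.35). With processed signals 30 of the 40 genes lay above the median gene and with loess 25, against 36 in the values given above.

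With each array left out in turn, 21 genes stayed called above and 1 below, the median ran from 1.19 to 1.21, no session call was made, and no pair changed sign.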
